A study of Homo sapiens with 5 samples.

Results

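Unplaced and unlocalised contigs are sequences of the human assembly that have no position on a finished chromosome. Peaks of the transcription factor ZBTB7A were taken as belonging to them where the hg19 sequence name starts with chrUn_ (unplaced) or ends with _random (assigned to a chromosome but not placed on it). This gave 921 of 196770 peaks over 3 lists, on 50 contigs: 107 peaks on gl000220, the unplaced contig that carries ribosomal RNA genes, 530 on other unplaced contigs and 284 on unlocalised ones. The lists come from ChIP-seq, sequencing of the DNA that an antibody against ZBTB7A (R&D Systems) brought down from chromatin, in VCaP cells. VCaP is an established line from a prostate cancer that carries the androgen receptor and a TMPRSS2-ERG gene fusion, so each condition is a state of 1 cell line. Cells were grown in medium with 10% full serum (FBS, 1 library), or kept in 5% hormone-depleted serum and given 10 nM of the androgen DHT (DHT, 2 libraries) or vehicle (CSS, 2 libraries) for 4 hours. All 5 libraries carry 1 shared treatment text, and that FBS cells got no DHT is a reading of their culture condition. Each condition has 1 peak list, so no spread between libraries could be measured and no test between conditions was possible. Intervals are exact 95% intervals unless named otherwise. They cover counting error only and treat peaks as independent, although neighbouring peaks are not.

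ZBTB7A, also called LRF or Pokemon, is a zinc finger protein of the BTB family that mostly acts as a repressor and is known for silencing fetal globin genes. Ribosomal DNA is a tandem repeat on the short arms of the acrocentric chromosomes. Each unit encodes a precursor RNA made by RNA polymerase I, which is cut into the 18S, 5.8S and 28S ribosomal RNAs, and an intergenic spacer separates it from the next unit. Most of its copies are not in the finished chromosomes of this build. In RefSeq's GRCh38.p14 gene table, RNA45SN5 (the precursor gene), RNA18SN5, RNA5-8SN5 and RNA28SN5 are listed without a chromosome. Beside them are RNA18SP3 and RNA5-8SP8, which the table classes as pseudogenes. That table was used for these names only, since its build differs from hg19, so peaks are named by hg19 position and no part of a ribosomal RNA gene is attached to any of them.

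Contig peaks were a small part of every list, and the ribosomal contig was the most peak-rich of them in FBS and DHT. The contigs held 546 FBS peaks, 152 DHT peaks and 223 CSS peaks, which is 0.437% (0.401 to 0.475%), 0.445% (0.378 to 0.522%) and 0.590% (0.515 to 0.673%) of the lists. Of these, 57 FBS, 27 DHT and 23 CSS peaks lay on gl000220. Another 316 FBS, 83 DHT and 131 CSS peaks lay on the other unplaced contigs, and 173, 42 and 69 on unlocalised ones. FBS peaks were spread over 49 contigs, DHT peaks over 33 and CSS peaks over 39, and 31 contigs had a peak in every list. The share of the DHT list on contigs was 0.755 times that of the CSS list (0.610 to 0.932). One contig, chr9_gl000199, carried part of that difference, and without it the ratio was 0.836 (0.671 to 1.04). On gl000220 alone the DHT to CSS ratio was 1.30 (0.718 to 2.37).

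The FBS list held a smaller share of contig peaks than the CSS list over all peaks, but a larger share at the strictest significance threshold. The FBS to CSS ratio of shares was 0.741 (0.633 to 0.870) over all peaks, and 0.831 (0.704 to 0.983) without chr9_gl000199. With a minimum −log10 q of 10 it was 1.59 (1.15 to 2.22), where q is the false discovery rate the authors' peak caller gave each peak. With a minimum of 5 it was 0.726 (0.595 to 0.887). With as many top peaks from FBS and CSS as the DHT list holds it was 1.14 (0.949 to 1.38). The direction of this comparison therefore depends on the threshold, and 1 q-value can stand for different binding strengths where depths are unknown. The FBS to DHT ratio was 0.982 (0.819 to 1.18) over all peaks and 2.27 (1.51 to 3.51) at the higher threshold. On gl000220 it was 0.577 (0.359 to 0.949) over all peaks and 1.74 (1.06 to 2.91) with equal numbers of top peaks.

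Peaks on gl000220 combined high significance with low fold enrichment, the authors' ratio of ChIP signal over background at a peak. Their median −log10 q was 10.4 in FBS, 8.55 in DHT and 15.7 in CSS, against 4.26, 5.22 and 4.96 for all peaks outside the contigs. By q-value their median rank lay at percentile 95.6 of the FBS list, 81.5 of the DHT list and 95.3 of the CSS list. By fold enrichment it lay at percentile 0.0785, 0.258 and 0.355. The median fold enrichment on gl000220 was 2.19 in FBS, 2.78 in DHT and 2.57 in CSS, while off the contigs it was 4.56, 5.71 and 5.58.

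Off the contigs, few of the strong peaks had such low folds. A −log10 q of at least 10 together with a fold enrichment under 3, thresholds chosen after the values were seen, was met by 49 FBS, 14 DHT and 42 CSS peaks in the whole lists. Of these, 21, 6 and 10 were on gl000220, which held 31 FBS, 11 DHT and 16 CSS peaks with that −log10 q. On the other contigs there were 6, 0 and 3. Off the contigs there were 22, 8 and 29, among 6033 FBS, 4009 DHT and 5425 CSS peaks with that −log10 q. Above that q threshold the median fold enrichment on gl000220 was 2.25 in FBS, 2.89 in DHT and 2.60 in CSS, against 7.01, 9.18 and 9.15 off the contigs. Peaks of the remaining contigs stood closer to the rest of the lists. Their median −log10 q was 5.04 in FBS, 5.55 in DHT and 5.96 in CSS and their median fold enrichment was 4.36, 5.57 and 5.16.

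**Figure D1:**
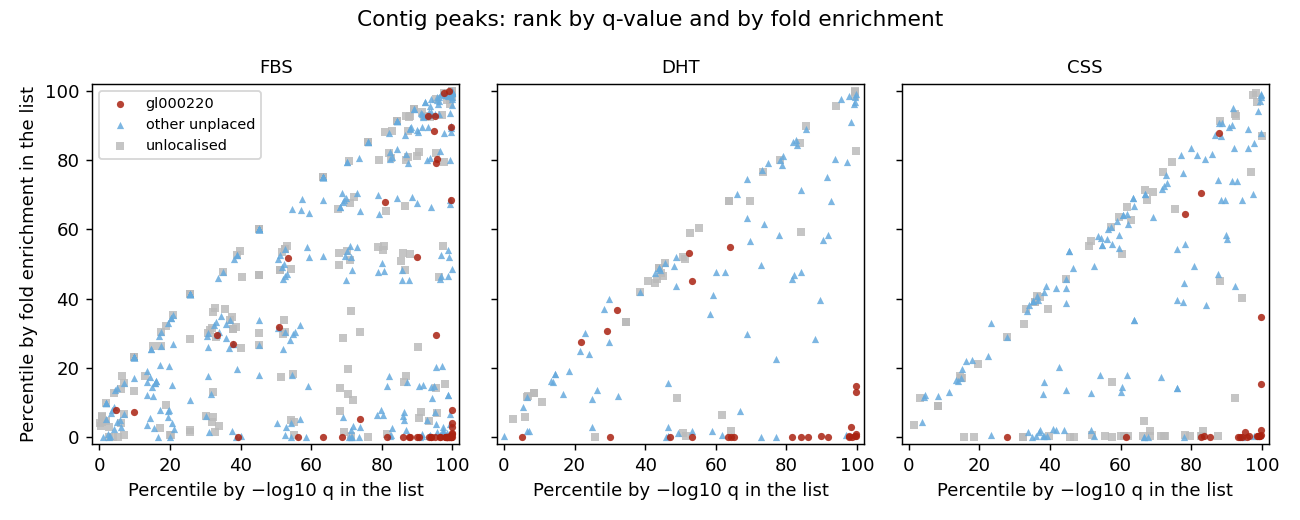
Each point is a contig peak, placed by its percentile within its own list by −log10 q (horizontal axis) and by fold enrichment (vertical axis), for FBS, DHT and CSS from left to right. Many gl000220 peaks (red) lie at the right end of the floor of each panel, with median percentiles by q-value of 95.6, 81.5 and 95.3.

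Along gl000220 the peaks fell into 2 stretches that met at about 100 kb, a boundary set after the positions were seen. In the first 100 kb there were 19 FBS, 6 DHT and 3 CSS peaks, with a fold enrichment of 3.24 to 10.2 in FBS, 4.94 to 5.87 in DHT and 6.23 to 8.21 in CSS. Beyond it there were 38 FBS, 21 DHT and 20 CSS peaks, with folds of 1.51 to 3.40 in FBS, 1.58 to 4.55 in DHT and 1.56 to 4.90 in CSS. None of the peaks beyond 100 kb reached the median fold enrichment of its list, whereas 12 FBS, 2 DHT and 3 CSS peaks of the first 100 kb were above it. The q-values ran the other way. The median −log10 q beyond 100 kb was 14.5 in FBS, 10.5 in DHT and 16.7 in CSS, and in the first 100 kb it was 8.91, 4.79 and 9.12.

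**Figure D2:**
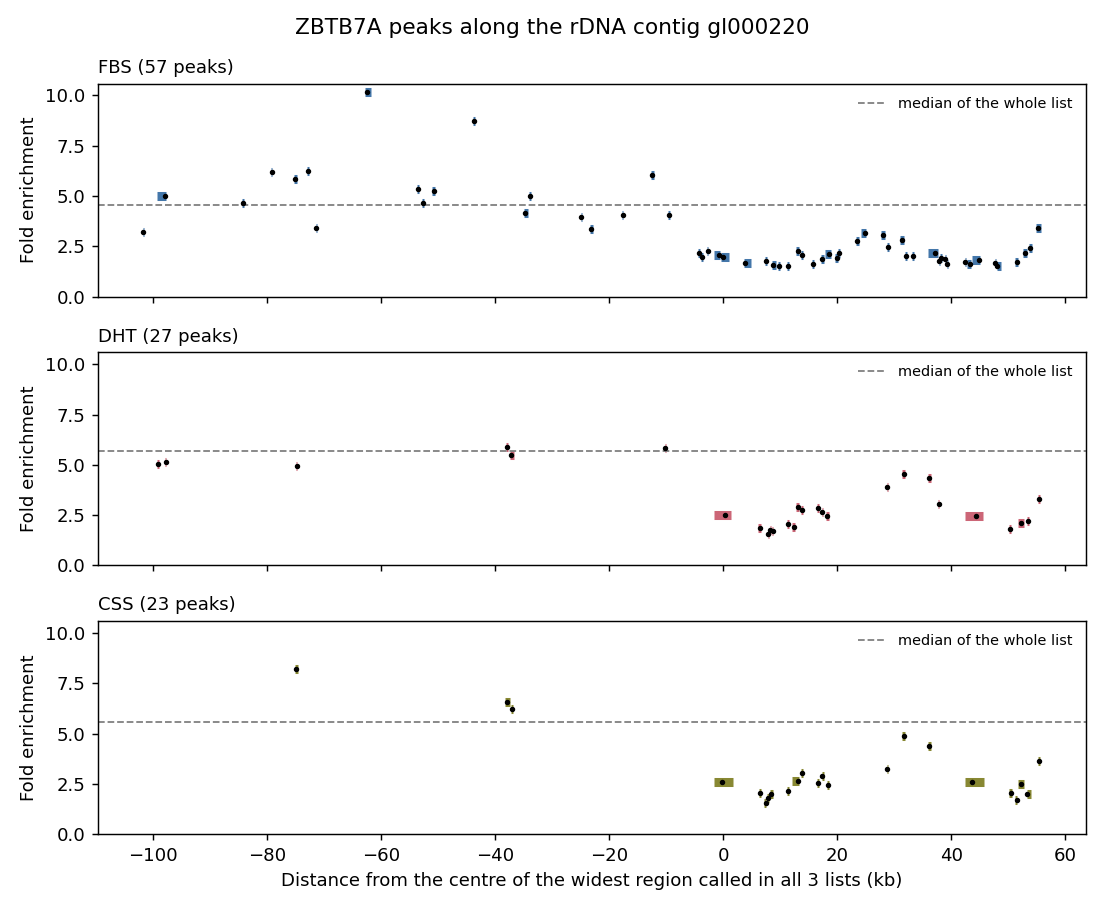
Peaks along gl000220 in FBS, DHT and CSS from top to bottom, as bars at their fold enrichment (vertical axis) with a dot at the summit, by distance in kb from the centre of the widest region called in all 3 lists. Dashed lines are the median fold enrichment of each whole list (4.56, 5.70 and 5.58), and all peaks to the right of the centre lie below them.

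The 2 widest peaks of the whole DHT list and of the whole CSS list were on this contig. In DHT they were 3272 bp wide (148442 to 151713) and 3035 bp wide (104465 to 107499). In CSS they were 3374 bp wide (104410 to 107783) and 3312 bp wide (148424 to 151735). The widest peak on any other sequence was 2142 bp in DHT and 2339 bp in CSS. In FBS the same stretches were covered by 2 and 3 narrower peaks, and its widest peak on gl000220, at 1676 bp, ranked 39 in its list. Median widths on gl000220 were 364 bp in FBS, 334 bp in DHT and 430 bp in CSS, against 258, 249 and 239 bp off the contigs. The peaks were also crowded: 80.7% (68.1 to 90.0%) of FBS, 74.1% (53.7 to 88.9%) of DHT and 69.6% (47.1 to 86.8%) of CSS peaks had another summit of their own list within 2000 bp, against 27.9%, 19.2% and 20.2% off the contigs. On the other contigs the share was 43.4% in FBS, 17.6% in DHT and 26.5% in CSS.

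Overlapping peaks of the lists merged into 59 regions on gl000220, and 14 of them (23.7%, 13.6 to 36.6%) held a peak in all 3 lists, against 7.67% of the 151256 regions of the whole lists. A further 6 held DHT and CSS peaks only (5.97% of all regions), 2 FBS and CSS only (2.69%), and 1 FBS and DHT only (2.61%). There were 35 regions of FBS alone (59.3%, 45.7 to 71.9%), against 68.4% of all regions, 1 of DHT alone (5.10% of all regions) and 0 of CSS alone (7.57% of all regions). The exact interval of the count of 0 in 59 regions reaches up to 6.06%. The values that follow are those of the peak with the highest −log10 q in a list where a region held several. Over the 14 shared regions the fold enrichment had a median of 2.16 in FBS, 2.72 in DHT and 2.76 in CSS, and the −log10 q a median of 20.2, 15.6 and 24.9.

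The region at the far end of the contig, from 160936 to 161731, had the highest −log10 q of any gl000220 peak in CSS. Its −log10 q was 38.9 in FBS, 22.3 in DHT and 44.3 in CSS, with fold enrichments of 3.40, 3.30 and 3.63. From 137069 to 137927 the −log10 q was 35.4 in FBS, 24.4 in DHT and 42.2 in CSS, and the folds were 2.81, 4.55 and 4.90. Both regions ranked above percentile 99 by q-value in each list. The region from 141971 to 144068 had folds of 2.18 in FBS, 4.37 in DHT and 4.40 in CSS and a −log10 q of 20.8, 22.7 and 31.4. Its strongest FBS summit lay at 143199, apart from the DHT and CSS summits at 142139 and 142135.

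A run of shared regions lay between 117 and 125 kb. From 118064 to 119329 the −log10 q was 28.6 in FBS, 23.5 in DHT and 27.98 in CSS, with folds of 2.25, 2.89 and 2.62. From 119627 to 120040 it was 22.4 in FBS, 19.3 in DHT and 38.8 in CSS, with folds of 2.07, 2.78 and 3.03. In these regions the summits of the lists lay close together, at 119187, 119160 and 119181 in the first and at 119873, 119829 and 119802 in the second. The region from 123285 to 123763 had a −log10 q of 13.2 in FBS, 11.1 in DHT and 22.4 in CSS. That from 124006 to 125042 had 20.5 in FBS, 6.38 in DHT and 9.41 in CSS. The region from 117241 to 117569 had 4.75 in FBS, 8.55 in DHT and 16.3 in CSS.

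The wide regions were from 104385 to 107783, with a −log10 q of 16.1 in FBS, 16.5 in DHT and 25.9 in CSS, and from 148397 to 151735, with 11.2, 15.0 and 26.6. Their folds were 2.08 in FBS, 2.52 in DHT and 2.57 in CSS for the one, and 1.82, 2.45 and 2.59 for the other. Of the rest, the regions from 134715 to 135129 (22.5 in FBS, 16.2 in DHT, 15.7 in CSS) and from 157734 to 160203 (20.0, 9.44 and 23.8) had a high −log10 q. The region from 114235 to 115334 had 5.19 in FBS, 5.01 in DHT and 14.3 in CSS. The only shared region of the first 100 kb was from 30808 to 31500, with folds of 5.83 in FBS, 4.94 in DHT and 8.21 in CSS and a −log10 q of 9.65, 3.68 and 10.8. Values of different lists stand side by side here and do not measure a change, since depth and control are unknown.

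DHT and CSS peaks overlapped themselves most when shifted along the contig by about 44 kb. Shifting the peaks of a list along gl000220 by every distance from 10 to 60 kb, the number of peak bases that met another peak was highest for shifts of 43977 to 44017 bp in DHT (4438 of 15801 bp) and of 43973 to 43996 bp in CSS (5541 of 17192 bp). The median over all shifts was 1406 bp in DHT and 1590 bp in CSS. The next maximum, more than 3000 bp away, was 3630 bp at a shift of 36848 bp in DHT and 4693 bp at 36877 bp in CSS. FBS peaks covered more of the contig, and their maximum lay at a shift of about 11 kb (8768 of 30550 bp). At the midpoint of the CSS shifts, 43984 bp, the FBS value was 6230 bp. That lay at percentile 79.2 of all shifts, and the FBS median was 4752 bp. Among shifts of at least 30 kb the highest FBS value, 6287 bp, was at 43956 bp. That floor leaves out the larger FBS maxima, 8768 bp at about 11 kb and 8647 bp at 19459 bp.

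**Figure D3:**
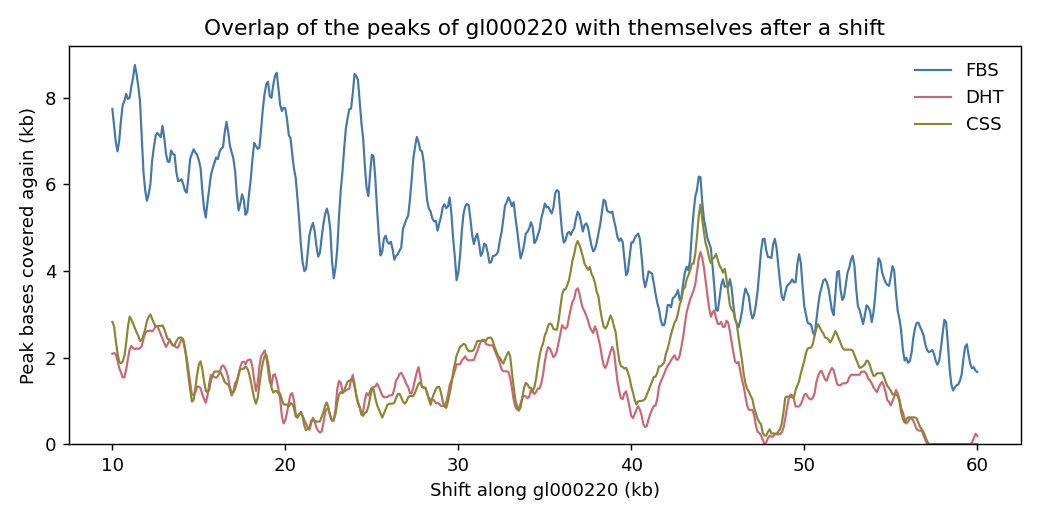
Peak bases of gl000220 that are covered again (vertical axis, kb) when the peaks of one list are shifted along the contig by the distance on the horizontal axis (10 to 60 kb). The DHT and CSS curves have their highest point near 44 kb, at 4438 and 5541 bp, and the FBS curve has a local maximum there.

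Pairs of peaks that overlapped after a shift of 43984 bp numbered 15 in FBS, 7 in DHT and 7 in CSS. Summits lay within 100 bp of that spacing in 6 of the FBS pairs (43913 to 44016 bp apart), 3 of the DHT pairs (43965 to 44018 bp) and 5 of the CSS pairs (43967 to 43973 bp). The spacing was taken from the CSS peaks themselves, so the CSS count restates that choice. It also lies inside the range of best DHT shifts, 43977 to 44017 bp, so the DHT count is not independent of it either. The widest CSS peak, from 104410 to 107783, with a fold of 2.57 and a −log10 q of 25.9, had its counterpart from 148424 to 151735 at 2.59 and 26.6. The CSS peak from 112318 to 112688, with 2.03 and 13.7, matched the one from 156232 to 156661, with 2.07 and 14.7. These pairs had nearly the same strength, but not every pair did. The CSS peak from 117323 to 117560 had a fold of 2.15 and a −log10 q of 16.3, and its counterpart from 161242 to 161584 had 3.63 and 44.3. In DHT the corresponding values were 2.07 and 8.55 for the peak from 117323 to 117552, and 3.30 and 22.3 for that from 161255 to 161569. In FBS they were 1.54 and 4.75 for the peak from 117241 to 117569, and 3.40 and 38.9 for that from 160936 to 161731.

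Beyond 100 kb, the peaks that could have a counterpart before the last peak of the contig numbered 10 in FBS, 6 in DHT and 6 in CSS. Of these, 7 in FBS, 6 in DHT and 6 in CSS overlapped another peak after a shift of 43984 bp. This is a description of a crowded stretch, and no count expected by chance was worked out. The shift was taken from the CSS peaks and is also among the best shifts of the DHT peaks. The CSS and DHT counts here therefore restate that choice. At the far end, 9 of 12 FBS, 4 of 5 DHT and 5 of 6 CSS peaks had a counterpart 43984 bp before them. The DHT peak from 159357 to 159667 and the CSS peak from 159318 to 159966 were the ones without. Whether the sequence itself recurs at this distance was not tested, as no hg19 sequence was used.

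Of the 38 FBS peaks beyond 100 kb, 17 had a DHT and 19 a CSS partner, which is a peak that overlaps by at least 1 bp. Of the 19 FBS peaks in the first 100 kb, 2 had a DHT and 1 a CSS partner. Over the whole FBS list 13.3% of peaks had a DHT and 13.5% a CSS partner, so the counts of the first 100 kb are near that level. The FBS peaks with the highest fold on the contig were unpartnered: from 43312 to 44236 (fold 10.2, −log10 q 17.3), from 62192 to 62494 (8.72, 12.7), from 33120 to 33386 (6.22, 8.91), from 26758 to 27019 (6.20, 9.95) and from 93439 to 93955 (6.04, 20.7). The DHT peaks with the highest fold were from 68056 to 68336 (5.87), which had a CSS partner of fold 6.57 but no FBS peak, and from 95779 to 95976 (5.82), the 1 region of gl000220 seen in DHT alone. The next DHT peaks by fold were from 68664 to 69297 (5.49), from 8146 to 8398 (5.13) and from 6847 to 7175 (5.03). These last 2 overlapped 1 FBS peak, from 6698 to 8301, with a −log10 q of 20.7 in FBS.

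On gl000220 most DHT peaks had a CSS partner and most CSS peaks a DHT one. This was so for 23 of 27 DHT peaks (85.2%, 66.3 to 95.8%), against 63.9% of all DHT peaks, and for 21 of 23 CSS peaks (91.3%, 72.0 to 98.9%), against 56.8% of all CSS peaks. The difference from the peaks off the contigs was 21.3 percentage points in DHT (Newcombe interval 3.59 to 30.2) and 34.5 in CSS (16.4 to 40.8). Peaks on gl000220 were also wider and more crowded, and how far this adds to the overlap was not tested. Of the 57 FBS peaks, 22 (38.6%, 26.0 to 52.4%) had a DHT or CSS partner, against 17.2% of all FBS peaks, a difference from the peaks off the contigs of 21.5 points (9.93 to 34.4). An FBS partner was present for 18 of 27 DHT peaks (66.7%, 46.0 to 83.5%), and the 48.2% of the DHT list lies inside that interval. It was present for 17 of 23 CSS peaks (73.9%, 51.6 to 89.8%), against 44.1% of the CSS list. A partner in at least 1 other list was present for 26 of 27 DHT peaks (77.4% of the list) and 23 of 23 CSS peaks (69.7% of the list). A partner in both was present for 17 of 57 FBS peaks (9.59% of the list), 15 of 27 DHT peaks (34.8%) and 15 of 23 CSS peaks (31.2%). Where both peaks needed a −log10 q of at least 10, 10 of 11 DHT peaks (90.9%, 58.7 to 99.8%) had a CSS partner, against 59.8% of all such DHT peaks. That 59.8% lies inside the interval. With the same minimum, 10 of 16 CSS peaks (62.5%, 35.4 to 84.8%) had a DHT partner, against 43.6% of all such CSS peaks, a share inside the interval.

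On the other contigs the sharing differed between the lists. Of the DHT peaks there, 82 of 125 (65.6%, 56.6 to 73.9%) had a CSS partner, and the difference from the peaks off the contigs was 1.68 points (-7.02 to 9.45). Of the CSS peaks, 85 of 200 (42.5%, 35.6 to 49.7%) had a DHT partner, which is 14.3 points below the peaks off the contigs (difference -14.3, -21.0 to -7.39). Without chr9_gl000199 this CSS share was 47.4% and the difference -9.44 points (-16.8 to -2.01). For all contig peaks of CSS together the share was 47.5% and the difference -9.31 points (-15.8 to -2.75), which without chr9_gl000199 was -4.29 points (-11.3 to 2.60). FBS peaks of the other unplaced contigs had a DHT or CSS partner in 27.2% of cases (22.4 to 32.5%), and those of the unlocalised contigs in 14.5% (9.58 to 20.6%), against 17.1% off the contigs.

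**Figure D4:**
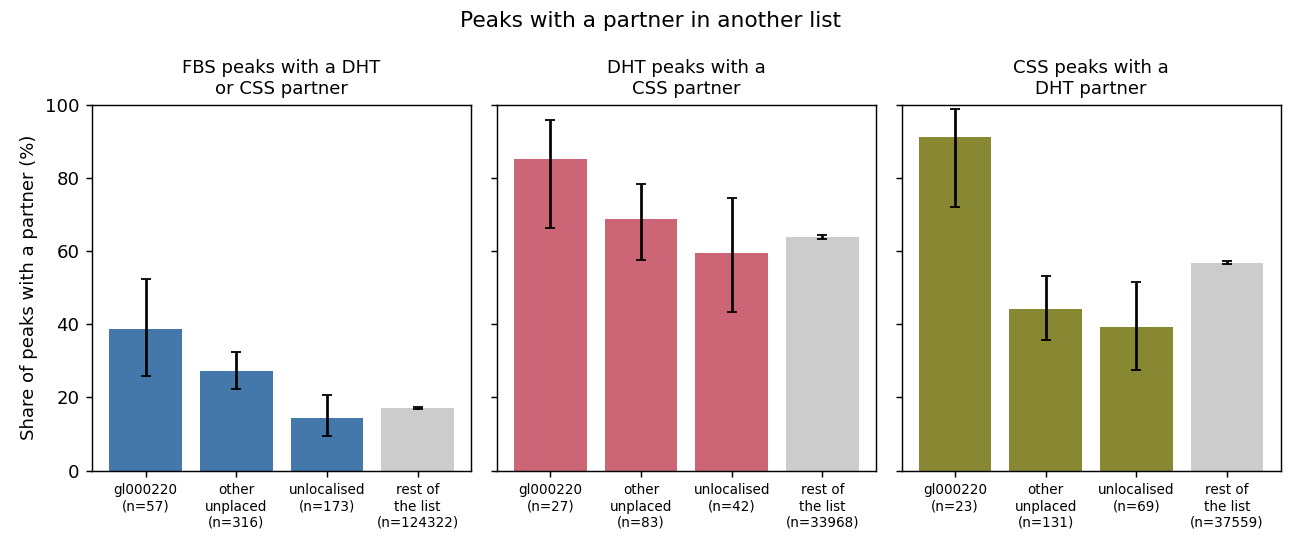
Share of peaks with an overlapping peak in another list (vertical axis, %), for gl000220, other unplaced contigs, unlocalised contigs and the rest of the list (grey). Bars carry exact 95% intervals, and the gl000220 bars stand at 38.6% in FBS, 85.2% in DHT and 91.3% in CSS.

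Summit distances on the other contigs were near those of the rest of the lists for DHT with CSS, and shorter for FBS with CSS. Where a DHT peak there had a CSS partner, the nearest CSS summit was at a median of 54 bp, against 63 bp off the contigs, and 72.0% (60.9 to 81.3%) were within 100 bp, against 65.4% off the contigs. For FBS peaks with a CSS partner the median was 61 bp, against 117 bp off the contigs, and 62.6% (51.9 to 72.6%) were within 100 bp, against 44.2% off the contigs. For FBS peaks with a DHT partner the median was 69 bp, against 112 bp, and 53.3% (41.4 to 64.95%) were within 100 bp, against 46.0%, which lies inside the interval. On gl000220 the median for DHT against CSS was 34 bp, and 15 of 23 (65.2%, 42.7 to 83.6%) were within 100 bp, near the 65.4% off the contigs. For FBS against CSS the median there was 220.5 bp, and 8 of 20 (40.0%, 19.1 to 63.9%) were within 100 bp. The 44.2% off the contigs lies inside that interval.

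Of the 50 contigs, 18 held at least 10 peaks in a list, 12 of them unplaced and 6 unlocalised. Those with at least 20 peaks in a list, beside gl000220 and chr9_gl000199, were gl000225 (40 FBS, 8 DHT and 22 CSS peaks), gl000216 (23, 12 and 21), chr7_gl000195 (46, 6 and 5), gl000214 (36, 9 and 4), chr1_gl000192 (34, 6 and 7), gl000219 (29, 3 and 4), gl000224 (27, 6 and 7) and chr17_gl000205 (24, 3 and 2). The FBS list is longer, so counts are compared as shares of the lists: gl000214, for instance, held 0.0288% of the FBS and 0.0264% of the DHT list. The FBS to CSS ratio of shares was 2.78 (1.11 to 8.98) on chr7_gl000195, the 1 of 18 contigs whose interval lay above 1. It was 0.0897 (0.0352 to 0.203) on chr9_gl000199, 0.331 (0.175 to 0.630) on gl000216 and 0.550 (0.319 to 0.972) on gl000225. For DHT against CSS, 2 of 18 intervals lay below 1 and 0 above, those of chr9_gl000199 and gl000225 (0.403, 0.155 to 0.939). No adjustment was made for the 18 contigs compared.

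The other contigs of this size had fewer peaks. They were gl000228 (15 FBS, 6 DHT and 10 CSS peaks), gl000212 (15, 3 and 6), gl000218 (14, 3 and 1), chr4_gl000194 (12, 5 and 5), chr4_gl000193 (10, 3 and 6) and gl000222 (10, 3 and 5). The contigs gl000221 (14 FBS peaks) and gl000241 (10 FBS peaks) had no DHT peak and 1 CSS peak each. In all, 10 contigs had FBS peaks only.

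**Figure D5:**
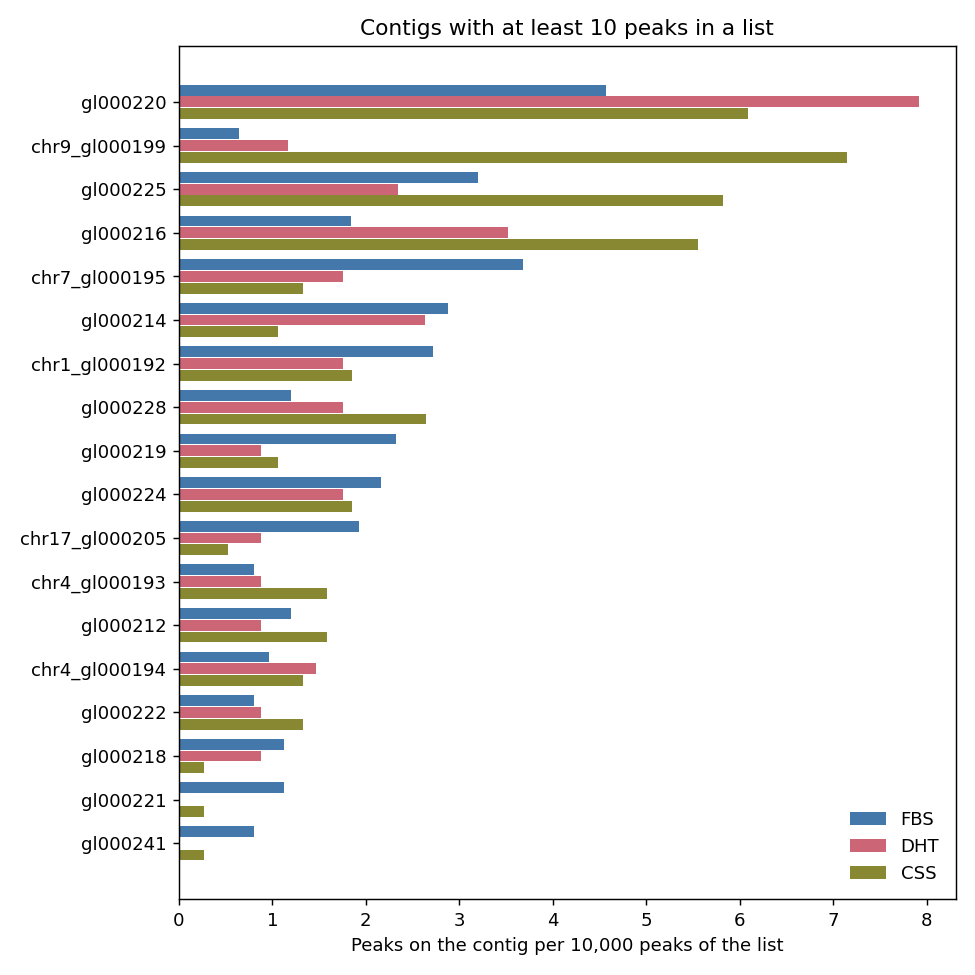
Peaks per 10000 peaks of the list (horizontal axis) on each contig with at least 10 peaks in a list, with bars for FBS, DHT and CSS from top to bottom. The bars of chr9_gl000199 rest on 8 FBS, 4 DHT and 27 CSS peaks, and those of gl000220 on 57, 27 and 23.

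On chr9_gl000199 most CSS peaks had a low fold enrichment. Its DHT to CSS ratio of shares was 0.164 (0.0417 to 0.471), from 4 DHT and 27 CSS peaks. Of the CSS peaks, 23 had a fold enrichment under 3 and the median was 2.45, against 3.31 for the 4 DHT and 4.15 for the 8 FBS peaks. The CSS peaks ran from 34291 to 169855 with a median −log10 q of 6.13. A DHT partner was present for 3 of 27, against 56.8% of all CSS peaks, and an FBS partner for 4 of 27, against 44.1%. A single strong region near its start was called in each list, from 34275 to 34697 in FBS (fold 10.3, −log10 q 35.8), from 34300 to 34666 in DHT (7.56, 24.9) and from 34291 to 34695 in CSS (8.08, 46.7). The summits there were at 34460 in FBS, 34471 in DHT and 34460 in CSS. The strongest CSS-only peak of all contigs by q-value, from 129595 to 129935, was also on chr9_gl000199 (fold 3.99, −log10 q 13.2). Low folds were not particular to it: the CSS median was 2.57 on gl000220, and low medians were also found on gl000226, a contig named after its values were seen, at 1.96 over 8 FBS, 2.39 over 4 DHT and 1.87 over 8 CSS peaks.

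The sites of highest fold on the other contigs were mostly called in all 3 lists. Of all merged regions, of any strength, 7.67% were. How often peaks of similar fold off the contigs were shared was not tested, so the sharing is not shown to be particular to contigs. On chr7_gl000195 a region had the highest contig fold in CSS: 10.8 in FBS (137821 to 138543), 12.8 in DHT (138000 to 138474) and 12.6 in CSS (138114 to 138477). On chr17_gl000205 a region had the highest in DHT, at 13.3 (34030 to 34333), with 9.56 in FBS and 11.8 in CSS (34052 to 34350). On gl000216 a region had the highest in FBS, at 11.1 (1412 to 2031), with 10.7 in DHT and 9.42 in CSS. By fold these ranked 136 in FBS, 70 in DHT and 287 in CSS, and some contig regions stood higher by q-value. The region on gl000228 from 118144 to 118907 ranked 10 of all FBS peaks (−log10 q 96.0, fold 10.8), and had a fold of 5.89 in DHT and 6.52 in CSS. The FBS peak on gl000214 from 64123 to 65832, named after its value was seen, ranked 7 (−log10 q 110, fold 9.07).

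Further sites among the leaders of a list were partnered in most cases, again without a share for peaks of similar fold off the contigs. On gl000216, CSS peaks from 75655 to 76224 (fold 12.3) and from 80519 to 80862 (11.3) had DHT partners of 9.74 and 10.0 and ranked 40 and 84 in CSS by q-value. On gl000212 the CSS peak from 40602 to 41282 had a fold of 11.8, against 8.60 in DHT. The DHT leaders also included gl000222 from 83669 to 84608 (11.2 in DHT, 10.5 in CSS), chr1_gl000191 from 101563 to 102476 (10.95 in DHT, 10.4 in CSS, no FBS peak) and gl000235 from 7036 to 7300 (10.8 in DHT, 6.65 in CSS, no FBS peak). One leader was seen in a single list, the FBS peak on chr7_gl000195 from 103060 to 103625 (fold 9.99, −log10 q 28.1).

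Contig peaks called in DHT or in CSS but not in the other had a −log10 q of at most 13.2. The DHT peaks without a CSS partner that had the highest −log10 q lay on gl000238 from 37696 to 37991 (13.0, fold 10.3), on chr4_gl000194 from 114594 to 115007 (12.1, 9.56) and on gl000220 from 143736 to 143977 (10.5, 3.07). An FBS peak was present at the last 2. The corresponding CSS peaks lay on chr9_gl000199 as given above, on gl000216 from 54085 to 54415 (12.7, fold 9.70) and on gl000217 from 53402 to 53739 (12.1, 8.55), and an FBS peak was present at the last. Over the other contigs, 54 of 611 merged regions (8.84%, 6.71 to 11.4%) held a peak in all 3 lists, and the 7.67% over all regions lies inside that interval. DHT and CSS only were found in 26 (4.26%, 2.80 to 6.17%, against 5.97% of all regions). FBS and DHT only were found in 19 (3.11%, 1.88 to 4.81%, against 2.61%). FBS and CSS only were found in 32 (5.24%, 3.61 to 7.31%, against 2.69%). Regions of FBS alone numbered 378 (61.9%, 57.9 to 65.7%), against 68.4% of all regions. Those of DHT alone numbered 23 (3.76%, against 5.10%) and those of CSS alone 79 (12.9%, 10.4 to 15.9%, against 7.57%). Part of the CSS-only regions lay on chr9_gl000199, where 3 of 27 CSS peaks had a DHT and 4 an FBS partner. The share without that contig was not worked out.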

How the data were processed

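The data used were 3 deposited peak lists in narrowPeak format, 1 per culture condition. Both DHT libraries point to 1 list in the labels, and so do both CSS libraries. How they were combined was not stated. Per the submitters' processing notes, MACS2 2.0.10.20131216, SAMtools 0.1.18 and BWA 0.7.2-r351 were used on hg19 (GRCh37). No source used here gives the control, the threshold of the peak caller or how duplicate and multiply aligned reads were treated. The fold enrichment deposited by the authors is a ratio over background, and their lists also give −log10 q and a score, deposited with each peak. The score was not used. Fold and −log10 q describe a peak within its own list only. Depth is unknown, as no read totals are in the lists. Unused columns of per-sample values numbered 0.

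Members were taken by sequence name, and positions count from 1. A partner needed an overlap of at least 1 bp. The 95% intervals are Clopper-Pearson for shares, exact conditional binomial for ratios and Newcombe for differences. The members, the contigs and the rules for naming regions were chosen with earlier results of these data known. Named were contigs with at least 10 peaks in a list, the 5 peaks of highest fold per list on gl000220 and on the other contigs, regions of gl000220 called in all 3 lists, and the 3 strongest DHT and CSS peaks without a partner in the other list. The overlap and shift code was tested on simulated data, and 6 of 6 pairs of lists gave the overlap counts that bedtools 2.31.1 gave. No hg19 sequence was used, so sequence features of the peaks, which had been planned, were not examined. Software was scipy 1.17.1, pandas 2.3.3, numpy 2.4.6 and matplotlib 3.10.9 under Python 3.11.15.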

Additional observations from a re-analysis of the deposited data

How the results depend on the processing

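Depth is unknown, so list length and q-value thresholds are not comparable between lists, and each alternative changed 1 choice. Under alternative settings, 72 values lay inside the reported value's 95% interval and 52 outside it, and 5 further values, ratios whose reported interval lay below 1, came out above 1. Some of those 5 had intervals that include 1. Leaving out chr9_gl000199 was added after the results were seen. The cause of a move was not tested unless fewer peaks or a stricter overlap shows it. No paired analysis was possible because each condition has 1 list. Leaving out single libraries was not run, as there are no values per library.

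The FBS to CSS ratio of contig shares, 0.741 over all peaks, turned to 1.59 with a −log10 q minimum of 10 and 1.14 (0.949 to 1.38) with equal numbers of top peaks. The FBS to DHT ratio, 0.982 over all peaks with an interval that includes 1, was 2.27 and 1.62 there, and 1.14 and 1.07 at a −log10 q minimum of 5 and a fold minimum of 5. With those minimums of 5 the FBS to CSS ratio stayed below 1, at 0.726 (0.595 to 0.887) and 0.784 (0.611 to 1.01). On gl000220 the FBS to DHT ratio, 0.577 over all peaks, turned to 1.85 (0.907 to 4.09) with a −log10 q minimum of 10. It was 1.74 (1.06 to 2.91) with equal numbers of top peaks and 1.10 (0.330 to 4.16) at a fold of at least 5. Of these intervals only that of 1.74 lay above 1. The FBS to CSS ratio on gl000220 was 0.750 over all peaks with an interval that includes 1. In the same order it was 1.73 (0.918 to 3.39), 2.04 (1.22 to 3.53) and 1.79 (0.446 to 10.3).

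The contig share of the FBS, DHT and CSS lists was 0.599%, 0.527% and 0.826% at a −log10 q of at least 5, 1.74%, 0.767% and 1.09% at 10 or more, and 0.374%, 0.348% and 0.477% at a fold of at least 5. It was 0.721% in FBS with equal numbers of top peaks, and 0.392% in FBS and 0.366% in DHT without gl000220. The gl000220 share was 0.0960%, 0.121% and 0.120% at a −log10 q of at least 5, 0.505%, 0.272% and 0.292% at 10 or more, 0.0225%, 0.0205% and 0.0126% at a fold of at least 5, and 0.138% in FBS with equal numbers of top peaks.

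The share of FBS contig peaks with a DHT or CSS partner was 34.6% at a −log10 q of at least 10, 28.7% at a fold of at least 5, 35.8% with equal numbers of top peaks and 30.4% with peaks within 500 bp. Requiring 50% of both peaks to overlap gave 16.5% in FBS, 52.0% for DHT with CSS and 35.4% for CSS with DHT, and summits within 100 bp gave 15.2%, 48.7% and 33.2%. DHT with CSS was 80.6% at a −log10 q of at least 10. On gl000220 the 50% overlap gave 15.8%, 59.3% and 69.6%, summits within 100 bp 17.5%, 55.6% and 65.2%, and a fold of at least 5 gave 22.2%, 40.0% and 66.7% of 9, 5 and 3 peaks. CSS with DHT there was 62.5% at a −log10 q of at least 10 and 100% with peaks within 500 bp. Shares of the whole lists under the stricter overlap and summit rules were not worked out. Whether the gl000220 shares exceed those of the lists under these rules is therefore not shown. The median percentile of contig peaks by fold enrichment was 33.9 in FBS, 38.3 in DHT and 38.1 in CSS, in place of 69.0, 60.9 and 63.8 by q-value.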
